A study of Mus musculus with 6 samples.

Results

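The colony stimulating factors Csf1, Csf2 and Csf3, the IL-6 type cytokines Il6, Lif and Il11, the cytokine Tnf and the IL-1 family genes Il1a, Il1rn and Il33 were followed in sulfasalazine-treated and untreated cells of a mouse line. They were taken by gene name from the deposited comparison table, and all 10 were found among its 14003 genes. The cells are labelled wild-type MC3T3-E1, which is known as a preosteoblast line from mouse calvaria. The sulfasalazine group (SAS) holds 3 libraries of cells kept in 200 µM sulfasalazine for 24 h, and the control group (CTL) holds 3 libraries of untreated cells. No vehicle is named for either group, no TNFα is named as added, and all 6 libraries carry 1 batch label. Whether replicates came from separate cultures is not stated, so p-values measure only the spread between these libraries, which may be technical. The series title places the experiment among questions of how TNFα binds its receptor TNFR1, how NF-kB signals and how fractures heal. Sulfasalazine is an anti-inflammatory drug used in bowel and joint disease, and it is known to interfere with NF-kB activation and with cystine uptake.

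Colony stimulating factors are secreted proteins that keep myeloid cells alive and drive them to divide and mature. In bone, M-CSF, the product of Csf1, is made by osteoblasts and stromal cells and is required by osteoclast precursors. Cytokines of the IL-6 type share the receptor subunit gp130, which passes the signal to JAK kinases and STAT3, and both LIF and IL-11 act on bone formation and resorption. Among IL-1 family genes, Il1a encodes an activating ligand, Il1rn encodes the antagonist that occupies the same receptor, and Il33 encodes a nuclear cytokine that is released from damaged cells and binds the receptor ST2. Many of these genes are inducible through NF-kB and AP-1 sites in their promoters. Many of their mRNAs are short-lived because AU-rich elements, built from the pentamer ATTTA, lie in their 3′ untranslated regions.

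The AU-rich stretches are shown because they are a shared feature of several of the mRNAs described here. Each line gives the 30 bases of the 3′ untranslated region that hold the most ATTTA, read from GENCODE M21 transcripts on the strand of the gene, with every ATTTA in capitals.
Csf2, bases 230 to 259: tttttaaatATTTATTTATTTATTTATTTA
Tnf, bases 437 to 466: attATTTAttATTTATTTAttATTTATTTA
Il11, bases 32 to 61: ctttaaaaccagatcttATTTATTTATTTA
Il6, bases 129 to 158: tttaattatttttaATTTAttgataATTTA
Lif, bases 3080 to 3109: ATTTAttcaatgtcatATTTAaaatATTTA
Csf1, bases 2021 to 2050: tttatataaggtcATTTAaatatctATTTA

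The region of Csf2 held 9 ATTTA in 317 bases, or 28.4 per kb, a density that 5 of 10174 tested genes with such a region exceeded. Il6, Tnf, Csf3 and Il11 held 14.1, 10.5, 8.97 and 8.38 ATTTA per kb, above the 95th percentile of 5.71 per kb over the same genes. Il1a, Lif, Csf1 and Il33 held 2.72, 2.20, 1.89 and 1.80 per kb, nearer the median of 1.22 per kb, and Il1rn held 0. The longer motif TTATTTATT occurred at least 1 time in 4 of the 10 genes (Csf2, Tnf, Il11 and Lif), against 7.39% of the tested genes. The counts describe sequence, and no half-life was measured.

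The promoters are shown for Csf1 and Lif, the most abundant members, for Il6, whose window matched both the NF-kB consensus and the AP-1 motif, and for Il33, whose groups overlapped and whose windows matched neither of these. Each line gives the 250 bases before the RefSeq gene start on GRCm38.p6, 5′ to 3′ on the strand of the gene, with matches to the NF-kB consensus or to the AP-1 motif TGANTCA in capitals.
Csf1, chr3:107760470-107760719, minus strand: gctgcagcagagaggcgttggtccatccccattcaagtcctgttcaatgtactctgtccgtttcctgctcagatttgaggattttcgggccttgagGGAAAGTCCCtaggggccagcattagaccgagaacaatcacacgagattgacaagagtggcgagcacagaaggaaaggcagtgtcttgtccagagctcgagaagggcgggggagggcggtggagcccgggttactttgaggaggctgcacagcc
Lif, chr11:4257318-4257567, plus strand: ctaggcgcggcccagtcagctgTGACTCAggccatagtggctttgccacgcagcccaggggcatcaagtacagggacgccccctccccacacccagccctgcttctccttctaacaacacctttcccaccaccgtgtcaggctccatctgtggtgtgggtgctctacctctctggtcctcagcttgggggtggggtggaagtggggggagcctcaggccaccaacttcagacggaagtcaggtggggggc
Il6, chr5:30012864-30013113, plus strand: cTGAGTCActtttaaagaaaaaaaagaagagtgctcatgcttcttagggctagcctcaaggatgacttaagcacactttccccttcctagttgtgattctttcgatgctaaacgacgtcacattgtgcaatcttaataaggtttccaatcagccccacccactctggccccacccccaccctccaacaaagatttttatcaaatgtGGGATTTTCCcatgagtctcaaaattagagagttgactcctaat
Il33, chr19:29924863-29925112, plus strand: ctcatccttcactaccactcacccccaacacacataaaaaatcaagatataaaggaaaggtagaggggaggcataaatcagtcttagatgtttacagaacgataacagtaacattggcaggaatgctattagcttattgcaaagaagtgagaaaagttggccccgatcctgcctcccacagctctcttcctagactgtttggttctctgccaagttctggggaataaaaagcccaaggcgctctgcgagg

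Windows of 9 of the 10 genes were in the RefSeq table, 13 windows in all since some genes have several starts, and Csf3 had none. Searched on both strands, the AP-1 motif lay in 5 windows, 1 each of Il6, Lif, Il11, Il1a and Il1rn, or 38.5% of the 13, against 6.75% of 32851 windows of all genes. The NF-kB consensus lay in 2 windows, those of Csf1 and Il6, against 3.90% of all windows. In Il6 it lay 44 to 35 bases before the start, and in Csf1 it lay 154 to 145 bases before it, on the opposite strand. The TATA motif TATAAA, searched on the strand of the gene and left in lower case above, lay in 4 windows, 1 each of Tnf and Il1a and both of Il33, against 7.59% of all windows. The windows of Csf2 and Tnf matched neither the NF-kB consensus nor the AP-1 motif, although their SAS libraries all lay below CTL. Il1a, with an AP-1 match, had overlapping groups. Any link between motif and response was not tested. Motif matches describe letters within 250 bases, and windows of related starts can share bases. The RefSeq start of Csf2 lay at -232 bases from its deposited gene start, so the bases just before the deposited start were not searched. The AP-1 match of Il11 lay before a RefSeq start 4718 bases inside the deposited gene, and its window at the 5′ end had none.

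The 6 libraries held 19247899 to 21579133 reads on genes with SAS and 15980935 to 20828706 in CTL, as recovered from the deposited FPKM (fragments scaled to gene length and to mapped fragments). Over all genes, 3846 were higher and 3032 lower with SAS among 10338 tested (limma on log2(FPKM + 1), Benjamini-Hochberg adjusted p under 0.05). The groups parted along the first principal component (88.6% of the variance), with 54.1 to 59.2 for the SAS libraries and -65.3, -63.2 and -42.6 for CTL replicates 1, 2 and 3. CTL replicate 3, the shallowest library, stood apart from the other controls, and values without it are given where a call or a count turns on it. Of 12 osteoblast-lineage markers, 8 had values, and 3 of these were above 1 FPKM on average, namely Runx2, Spp1 and Sparc. Col1a1, Bglap, Sp7, Tnfrsf11b and Pth1r were each below 1 FPKM in every library, and Alpl, Col1a2, Ibsp and Dlx5 had no values. Some defining markers of the labelled cell type were thus present, while most were near 0 or without values. Sparc had 18.1, 19.6 and 31.7 FPKM with SAS and 10.0, 13.6 and 43.6 FPKM in CTL, and it was called higher only when CTL replicate 3, or replicate 3 of both groups, was left out.

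Sulfasalazine-treated cells held far less mRNA of most of these cytokines. The 10 genes summed to 48.2, 48.4 and 60.6 FPKM with SAS and to 1051, 822 and 1051 FPKM in CTL, so the SAS mean was 5.38% of the CTL mean. Csf1, Csf2, Lif, Il11 and Il1rn fell, Il33 did not pass the test, and Csf3, Il6, Tnf and Il1a lay under the expression filter of 1 FPKM in at least 3 libraries. Among all tested genes, 29.3% fell and 37.2% rose. Csf2 and Il1rn passed the filter through their CTL values alone, so they could hardly have been tested without differing, and the count of 5 falls in 6 tested members supports nothing by itself. In 8 of the 10 genes every SAS library was below every CTL library, an arrangement found in 25.7% of all 14003 genes, and in Il1a and Il33 the groups overlapped. In bulk RNA, fewer producing cells and less mRNA per cell cannot be told apart.

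**Figure D1:**
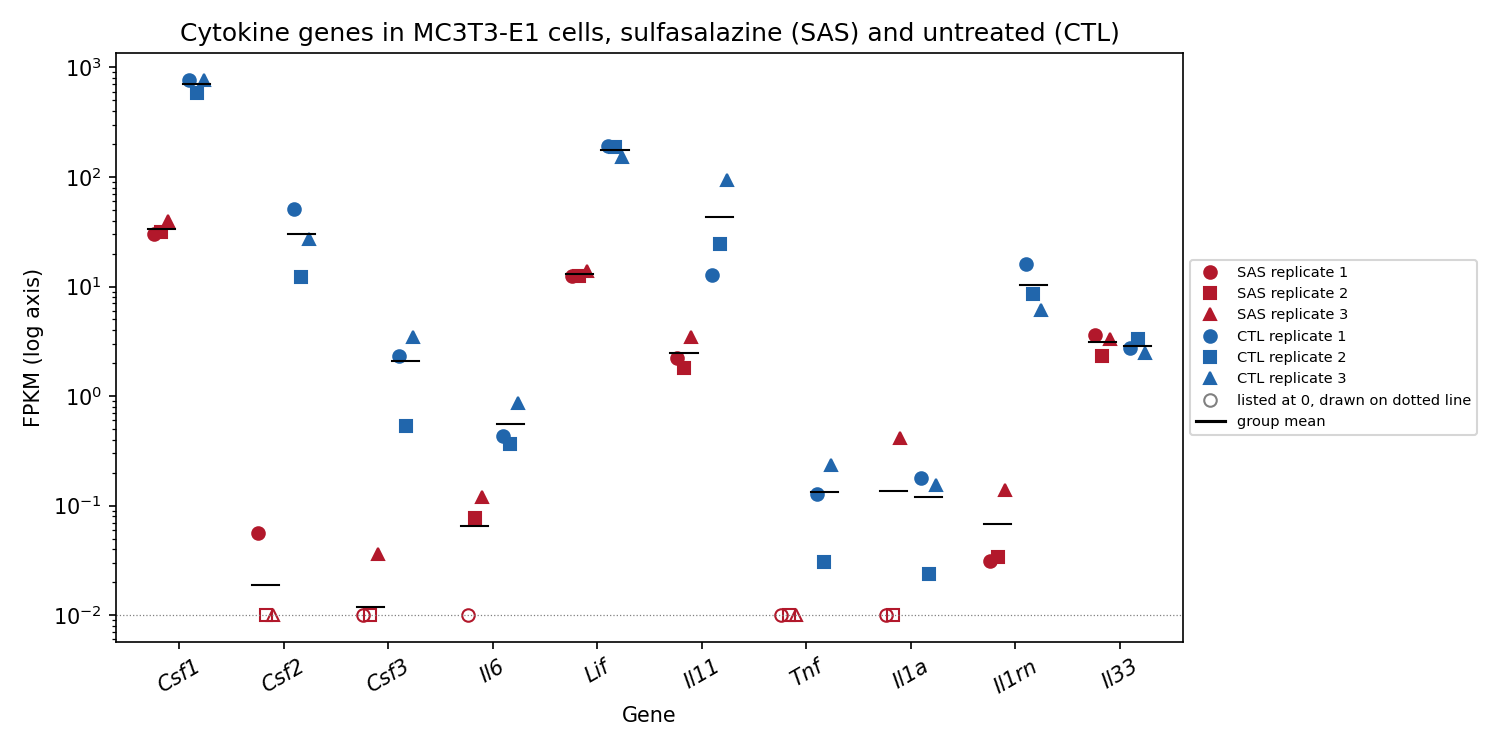
FPKM on a log axis of the 10 cytokine genes in each library, SAS (red) left of CTL (blue), with group means as lines; open symbols on the dotted line stand for libraries listed at 0. The SAS libraries lie below all CTL libraries in 8 genes, while Il1a and Il33 overlap.

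Within a library, levels per gene length spanned several orders of magnitude. Csf1 was the most abundant of the 10 genes in both groups and made up 64.1% of their summed FPKM with SAS and 72.5% in CTL. Lif came next with 24.8% in SAS and 18.6% in CTL. With SAS the order went on with Il33 and Il11, whose libraries overlapped, and the other 6 genes were each below 0.5 FPKM in every library. In CTL the order went on with Il11, Csf2 and Il1rn, whose neighbours overlapped, then Il33 and Csf3, which also overlapped, and then Il6, Tnf and Il1a below 1 FPKM, with overlap between Csf3 and Il6 and between Tnf and Il1a. Il33 took 5.93% of the sum with SAS and 0.300% in CTL, although its own level differed by less than the spread between libraries.

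Csf1, encoding M-CSF (chr3:107741048-107760469, minus strand, GRCm38), had 29.9, 31.6 and 39.4 FPKM in the SAS libraries and 772, 586 and 765 FPKM in the CTL libraries. All 3 treated libraries lay far below all 3 controls, and both groups were even. It averaged 33.6 ± 5.05 FPKM with SAS and 708 ± 105 FPKM in CTL (SD, n = 3 each). The difference of log2(FPKM + 1) was -4.35 (SE 0.15, limma adjusted p = 1.79e-06), the 13th lowest of the 10338 tested genes. The SAS mean lay at the 72.7th percentile of all genes in the table and the CTL mean at the 99.0th, so Csf1 was among the most abundant mRNAs of the untreated cells and was still well expressed after treatment. It rested on 4144 reads in the 3 SAS libraries and 80502 in the 3 CTL libraries. Scaled to the summed reads on genes of each group (60679504 for SAS and 56422750 for CTL), the CTL to SAS ratio was 20.9. Its exact 95% interval was 20.2 to 21.6. Read ratios below are depth-scaled in the same way, and such intervals cover counting error only.

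Csf2, encoding GM-CSF (chr11:54247271-54249667, minus strand), had 0.0565, 0 and 0 FPKM with SAS and 51.2, 12.1 and 27.1 FPKM in CTL. Those SAS values are 1, 0 and 0 reads, against 820, 207 and 355 reads in CTL, so the mRNA was at the limit of detection after treatment. At these depths, 3 reads correspond to 0.169 to 0.190 FPKM in the SAS libraries. The difference of log2(FPKM + 1) was -4.72 (SE 0.43, limma adjusted p = 4.41e-05), and the pseudocount sets its size, as it was -7.79 with a pseudocount of 0.1 FPKM. The CTL to SAS ratio of depth-scaled reads was 1486, with an exact 95% interval of 266 to 58746. The controls differed among themselves by 4.22-fold, CTL replicate 2 being the lowest. Of the exonic bases of Csf2, 12.0% also lie in the antisense transcript Gm12223, and the sources used here do not say whether strand was used in counting.

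Csf3, encoding G-CSF, the factor of granulocyte production (chr11:98701263-98703629, plus strand), had 0, 0 and 0.0359 FPKM with SAS and 2.30, 0.531 and 3.46 FPKM in CTL. In reads this was 0, 0 and 1 with SAS and 65, 16 and 80 in CTL, so the groups did not overlap but every library was shallow for this gene. The CTL to SAS ratio of depth-scaled reads was 173 (exact 95% interval 30.6 to 6881). Without the expression filter the difference of log2(FPKM + 1) was -1.48 (limma adjusted p = 0.0118), and on recovered reads (limma voom) the log2 fold change was -5.99 (adjusted p = 0.0013). Those settings called 22.4% and 28.4% of the genes lower. CTL replicate 2 was again the lowest control, as for Csf2.

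Lif, encoding leukemia inhibitory factor (chr11:4257557-4272514, plus strand), had 12.4, 12.6 and 13.7 FPKM with SAS and 193, 187 and 153 FPKM in CTL. Treated libraries differed by at most 1.11-fold and controls by 1.27-fold, and the groups were far apart. It averaged 12.9 ± 0.724 FPKM with SAS and 178 ± 22.0 FPKM in CTL (SD, n = 3 each), a difference of log2(FPKM + 1) of -3.68 (SE 0.12, limma adjusted p = 1.79e-06). Its reads numbered 2198 with SAS and 28366 in CTL, a depth-scaled CTL to SAS ratio of 13.9 (exact 95% interval 13.3 to 14.5). Both Lif and Csf1 thus stayed measurable in every treated library.

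Il11, encoding interleukin 11 (chr7:4772373-4782859, minus strand), had 2.20, 1.80 and 3.46 FPKM with SAS and 12.7, 24.3 and 93.0 FPKM in CTL. The groups did not overlap, but the controls differed among themselves by 7.32-fold. The difference of log2(FPKM + 1) was -3.22 (SE 0.61, limma adjusted p = 0.0019). CTL replicate 3 lay 2.34 above the mean of the other controls on the log2(FPKM + 1) scale, a deviation at the 99.98th percentile of all tested genes. Without that library the difference was -2.44 (adjusted p = 0.00018), a fold 1.72 times smaller, and without CTL replicate 1, the lowest control, it was -3.83 (adjusted p = 0.00096), a fold 1.53 times larger. The size of the fall therefore depends on which control is used, while the call does not. Of its 50-base words, 3.13% also occur in transcripts of other genes.

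**Figure D2:**
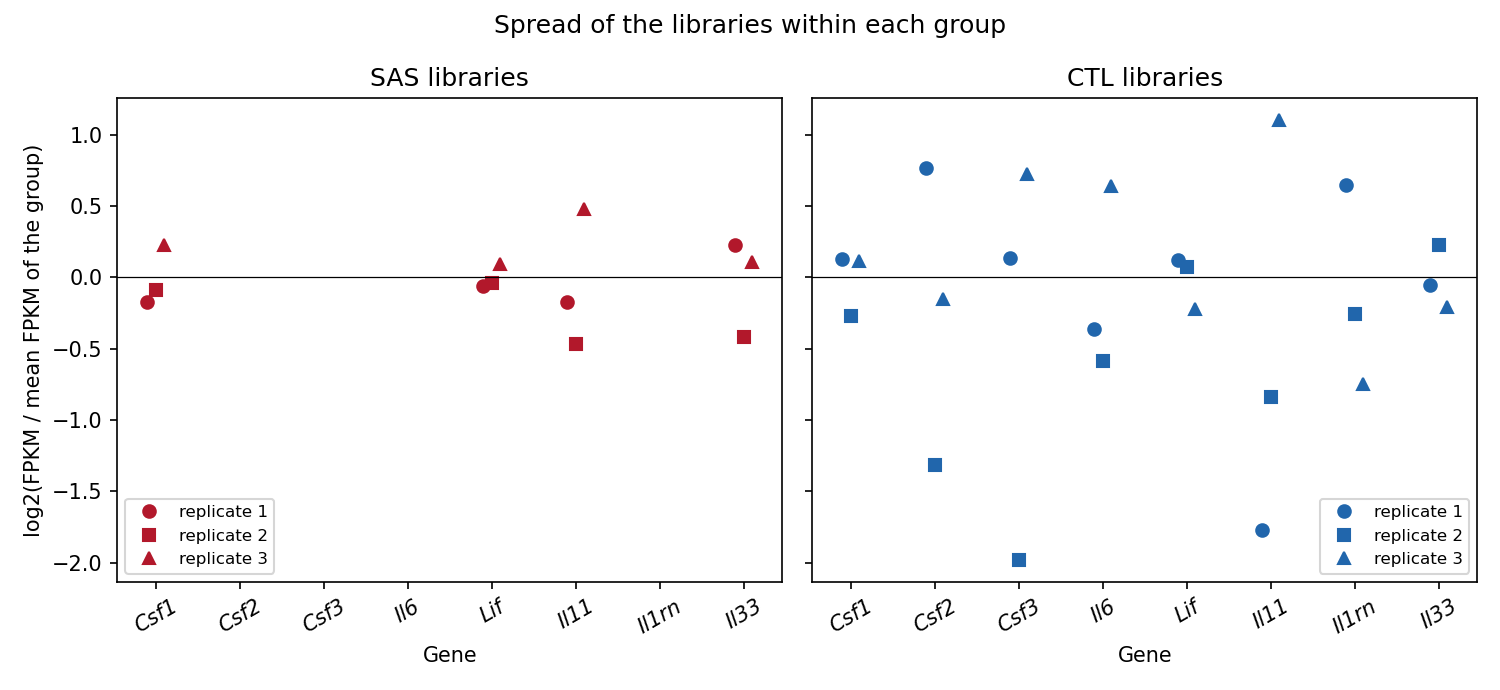
Each library's FPKM over the mean FPKM of its group on a log2 scale, SAS libraries left and CTL libraries right, for genes with at least 10 reads in every library of the group. Csf1 and Lif lie close to 0 in both groups, whereas the CTL libraries spread widely for Csf2, Csf3, Il6, Il11 and Il1rn, with CTL replicate 3 highest for Il11 and lowest for Il1rn.

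Il6 itself was scarce (chr5:30013114-30019981, plus strand), with 0, 0.0768 and 0.119 FPKM after SAS and 0.431, 0.368 and 0.862 FPKM in CTL. These values are 0, 2 and 3 reads with SAS and 11, 10 and 18 reads in CTL, and the groups did not overlap. The CTL to SAS ratio of depth-scaled reads was 8.39 with an exact 95% interval of 3.30 to 27.3. Without the filter the difference of log2(FPKM + 1) was -0.53 (limma adjusted p = 0.0083), and with voom on recovered reads it was -3.08 (adjusted p = 0.0074). The pseudocount of 1 FPKM exceeds every value of this gene, so the first of these understates its change. Among Lif, Il11 and Il6, Lif was the highest in each CTL library, followed by Il11 and then Il6.

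Tnf, encoding TNFα (chr17:35199381-35202007, minus strand), was listed at 0 FPKM in all 3 SAS libraries and at 0.129, 0.0302 and 0.236 FPKM in CTL. The controls held 4, 1 and 6 reads, so the gene was barely detectable in the untreated cells. Without the filter, limma did not call it (difference of log2(FPKM + 1) -0.17, adjusted p = 0.056). The authors' deposited table marks Tnf as lower, with an adjusted p of 0.0062.

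Il1rn, encoding the IL-1 receptor antagonist (chr2:24336853-24351494, plus strand), had 0.0312, 0.0338 and 0.140 FPKM with SAS and 16.2, 8.61 and 6.15 FPKM in CTL. In reads this was 1, 1 and 4 with SAS and 469, 266 and 146 in CTL, with no overlap. The difference of log2(FPKM + 1) was -3.31 (SE 0.29, limma adjusted p = 3.98e-05), and it was -5.89 with a pseudocount of 0.1 FPKM. Counted in depth-scaled reads, CTL exceeded SAS 158-fold (exact 95% interval 72.3 to 431). CTL replicate 3 was the lowest control here, the opposite of its place for Il11, and without it the difference was -3.59.

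Il1a, encoding interleukin 1 alpha (chr2:129299610-129309972, minus strand), had 0, 0 and 0.411 FPKM with SAS and 0.177, 0.0238 and 0.155 FPKM in CTL. All 16 of its SAS reads came from SAS replicate 3, against 7, 1 and 5 reads in CTL, so the groups overlapped and 1 library set the treated mean. No difference was detectable at this depth, with a SAS to CTL ratio of depth-scaled reads of 1.14 and an exact 95% interval of 0.516 to 2.59. Of its exonic bases, 11.2% also lie in Gm14023 on the opposite strand.

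Il33, encoding interleukin 33 (chr19:29925114-29960718, plus strand), had 3.62, 2.32 and 3.33 FPKM with SAS and 2.74, 3.33 and 2.47 FPKM in CTL. The libraries of both groups were intermingled. The difference of log2(FPKM + 1) was 0.08, with a 95% interval of -0.33 to 0.49 (limma adjusted p = 0.71). Its sign changed with the scaling and with the libraries kept, and the test did not call it under any setting that kept the gene. On the log2(FPKM + 1) scale, a gene at this level could not fall as far as the other tested members did. The interval therefore cannot be set against their changes. Its reads numbered 253 with SAS and 218 in CTL, a depth-scaled SAS to CTL ratio of 1.08 (exact 95% interval 0.897 to 1.30).

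**Figure D3:**
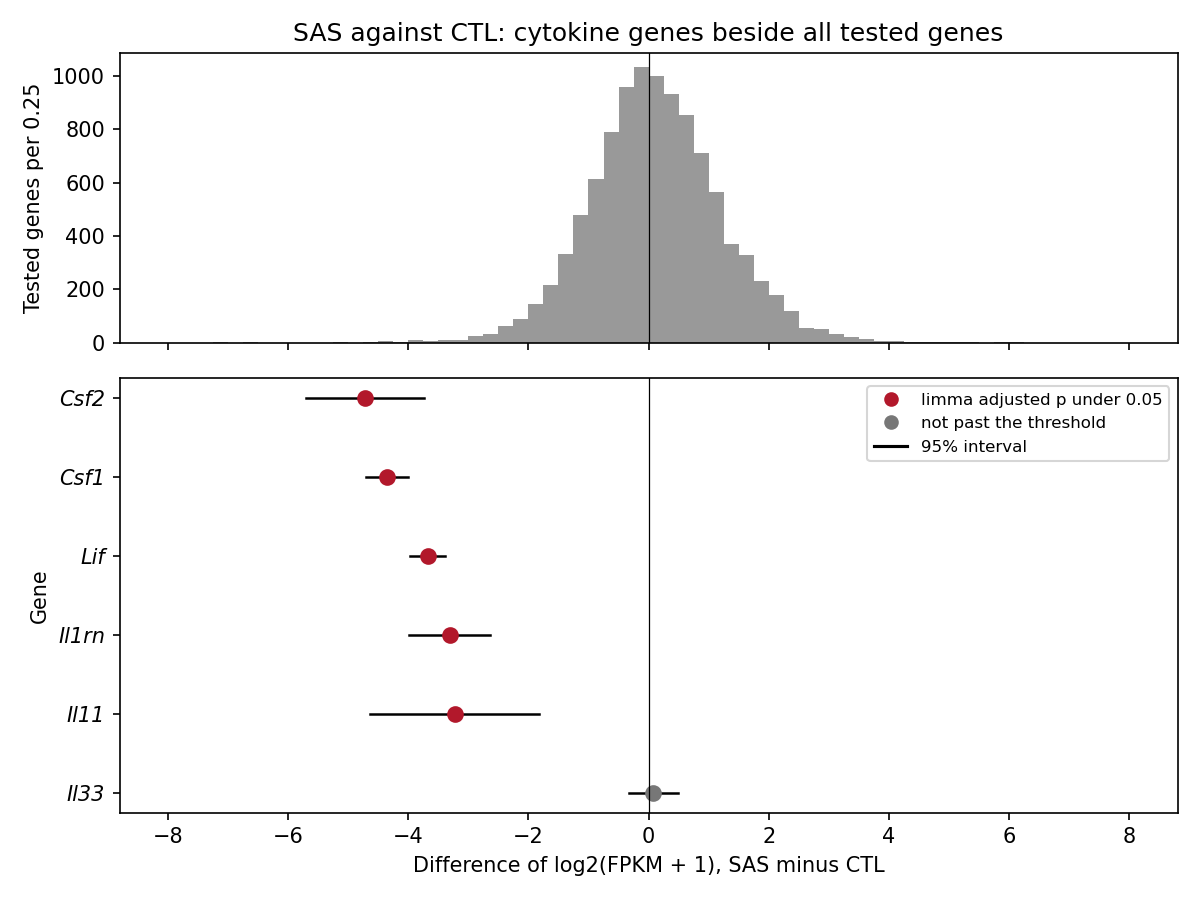
Upper panel, number of tested genes by difference of log2(FPKM + 1), SAS minus CTL, in steps of 0.25; lower panel, the 6 tested cytokine genes on the same axis with 95% intervals. Csf2, Csf1, Lif, Il1rn and Il11 lie between -4.72 and -3.22, in the far left tail of all tested genes, and Il33 lies at 0.08.

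In the authors' deposited table, 8 of the 10 genes are marked down, against 16.1% of all genes. The log2 fold changes in the authors' deposited table are -4.50 for Csf1, -10.2 for Csf2, -7.13 for Csf3, -3.10 for Il6, -3.88 for Lif, -4.23 for Il11 and -7.28 for Il1rn. For Il1a and Il33 the authors' deposited table gives 0.07 and 0.01, neither marked as changed. The values for Csf2, Csf3, Il6, Il1rn and Tnf are larger in size than those on the log2(FPKM + 1) scale, on which a pseudocount pulls low genes toward 0. The value for Il11 is also larger in size than the -3.22 on that scale, and than the -3.62 found with a pseudocount of 0.1 FPKM.

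Related ligands outside the 10 genes moved both ways. Of 23 further IL-6 type, CSF and IL-1 family ligands, 10 were in the table and 6 were tested, with 3 higher and 1 lower (median difference 0.52, against 0.08 over all tested genes). Ctf1, encoding the gp130 ligand cardiotrophin 1, had 7.04, 6.91 and 6.94 FPKM with SAS and 0.955, 0.621 and 0.898 FPKM in CTL. It rose by 2.13 on the log2(FPKM + 1) scale (SE 0.14, limma adjusted p = 1.23e-05). Clcf1, a gp130 ligand of the same family, had 21.6, 20.7 and 26.0 FPKM with SAS and 38.4, 36.2 and 43.3 FPKM in CTL, and fell by 0.77 on that scale (adjusted p = 0.0013). Of the exonic bases of Clcf1, 8.17% lie in another gene of the same strand. Il18, an IL-1 family cytokine named after its values were seen, also rose. Ctf1 and Il18 passed the filter through their SAS values alone, so they could hardly have been tested without differing, and their calls support nothing by themselves. With a filter of 5 FPKM, 1 of 4 tested ligands was higher and 1 lower. Without CTL replicate 3, 2 ligands were called lower instead of 1.

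Receptors of the cytokines were measured in the same cells, 13 of 17 having values and 7 being tested. Of these, Il11ra1, Tnfrsf1a and Tnfrsf1b rose, Il1rl1 and Il1r1 fell, and Il6st and Il6ra did not pass the test (median difference -0.20). Il1rl1, encoding the IL-33 receptor ST2, had 0.0309, 0.134 and 0.0694 FPKM with SAS and 5.05, 4.05 and 6.67 FPKM in CTL. It fell by 2.52 on the log2(FPKM + 1) scale (SE 0.18, limma adjusted p = 1.47e-05), but it had passed the filter through its CTL values alone. Il1r1, the receptor of IL-1 and of its antagonist, had 2.00, 1.68 and 2.83 FPKM with SAS and 5.35, 5.63 and 4.92 FPKM in CTL (difference -1.01, adjusted p = 0.0012). Neither gene reached the filter of 5 FPKM in 3 libraries, so neither was tested under it.

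Il11ra1, the alpha chain for IL-11, had 19.0, 20.2 and 24.4 FPKM with SAS and 7.65, 7.26 and 9.16 FPKM in CTL, without overlap. Its difference of log2(FPKM + 1) was 1.30 (SE 0.16, limma adjusted p = 0.00019), opposite in sign to that of Il11. Of its 50-base words 46.3% also occur in transcripts of other genes, so its reads are uncertain. The shared subunit gene Il6st had 62.4, 61.3 and 75.2 FPKM with SAS and 112, 91.8 and 57.1 FPKM in CTL. CTL replicate 3 lay below every SAS library for Il6st, and the difference was -0.34 (adjusted p = 0.22) with it and -0.61 (adjusted p = 0.0032) without it. Il6ra, the IL-6 binding chain, had 3.87, 3.43 and 3.72 FPKM with SAS and 5.84, 4.20 and 3.30 FPKM in CTL, with overlap.

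Both TNF receptor genes were well expressed while Tnf was not. Tnfrsf1a, encoding TNFR1, had 278, 282 and 301 FPKM with SAS and 213, 199 and 269 FPKM in CTL (difference 0.35, limma adjusted p = 0.046). Tnfrsf1b, encoding TNFR2, had 92.6, 84.0 and 82.2 FPKM with SAS and 57.0, 51.1 and 77.7 FPKM in CTL (difference 0.49, adjusted p = 0.024). Neither call was held by median-of-ratios scaling (adjusted p = 0.19 for Tnfrsf1a and 0.083 for Tnfrsf1b). Tnfrsf1a was also not called without the filter (limma adjusted p = 0.0601) or without the intensity trend (0.0655). It was likewise not called with the replicate number as a block (0.0578) or without SAS replicate 3 (0.117). The count of receptors called higher was 1 in place of 3 without SAS replicate 1, SAS replicate 2, CTL replicate 1 or CTL replicate 2.

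The chains with values that bind colony stimulating factors or LIF, apart from the shared subunit gene Il6st, were near 0 in both groups. Csf1r, the receptor of M-CSF, had 0.0221, 0.0719 and 0.0248 FPKM with SAS and 0, 0.0918 and 0.0299 FPKM in CTL. Csf2rb, the beta chain for GM-CSF and related cytokines, and Csf2rb2, a related beta chain, were at most 0.0693 FPKM with SAS and 0.128 FPKM in CTL. Lifr, the LIF-binding chain, was at most 0.0297 FPKM with SAS and was listed at 0 in all CTL libraries. Osmr, the oncostatin M chain, was at most 0.144 FPKM with SAS and 0.867 FPKM in CTL, and Il1rap, the accessory chain of IL-1 and IL-33 receptors, was at most 0.108 FPKM with SAS and 0.0177 FPKM in CTL. Csf2ra, Csf3r, Cntfr and Il1r2 were not analysed here.

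**Figure D4:**
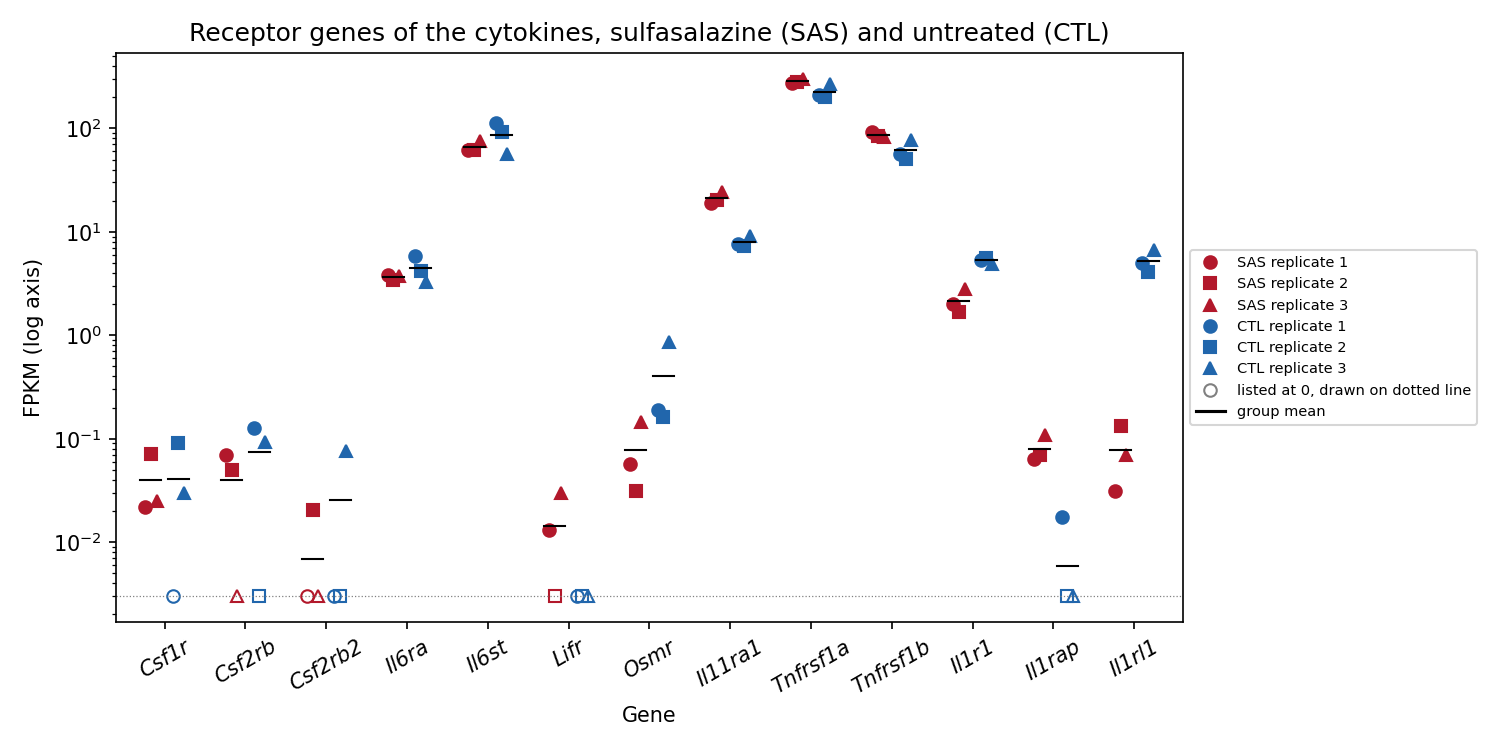
FPKM on a log axis of the 13 receptor genes with values in each library, SAS (red) left of CTL (blue), with group means as lines; open symbols on the dotted line stand for libraries listed at 0. Csf1r, Csf2rb, Csf2rb2, Lifr, Osmr and Il1rap lie below 1 FPKM in all libraries, Il1rl1 and Il1r1 are lower with SAS, and Il11ra1 is higher.

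Markers of cells that commonly make or answer these cytokines were read beside them. Of 11 macrophage and osteoclast markers, 7 had values, and their sum was 76.9 to 84.6 FPKM with SAS and 45.9 to 73.9 FPKM in CTL. Cd68 and Cd14 made up nearly all of it, Cd68 being lower and Cd14 higher with SAS, while Csf1r, Lyz2, Fcer1g and Ctsk were each below 0.5 FPKM in every library. Acp5, an osteoclast phosphatase under the filter, had 0.886, 1.00 and 1.49 FPKM with SAS and 0.0408, 0.230 and 0.399 FPKM in CTL. Of 10 T cell, mast cell and granulocyte markers, only S100a8 had values, at most 0.184 FPKM with SAS and 0.124 FPKM in CTL. The 3 endothelial markers with values, of 6 listed, summed to at most 0.139 FPKM with SAS and 0.213 FPKM in CTL. The 5 fibroblast and pericyte markers with values, of 8 listed, summed to 119 to 142 FPKM with SAS and 141 to 198 FPKM in CTL, nearly all of it Ly6a, and Dcn and Col3a1 were near 0. The 7 epithelial markers with values, of 9 listed, summed to 1884 to 2093 FPKM with SAS and 1293 to 1452 FPKM in CTL, mainly Krt8, Krt18 and Krt19. Krt8 and Krt18 were called higher, Krt19 was called lower (154 ± 42.9 FPKM with SAS and 350 ± 43.2 FPKM in CTL, SD, n = 3 each), Cdh1 had no call, and Krt5, Krt14 and Esrp1 were near 0. The part of these markers in the cytokine differences was not tested.

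JAK-STAT signalling genes, which act below gp130 and the CSF receptors, changed in both directions. Of 28 tested genes, 6 rose and 12 fell, with a median difference of -0.07. Tyk2, a JAK kinase, averaged 26.1 ± 1.78 FPKM with SAS and 5.92 ± 0.915 FPKM in CTL, a difference of 1.98 on the log2(FPKM + 1) scale, with 8.07% of its exonic bases in an antisense transcript. Stat5a, a transcription factor activated by several of these cytokines, rose by 1.67 and Pias3, an inhibitor of STAT3, rose by 1.58 on that scale. Stat3 itself, named after its values were seen, was also among the rises. It had 84.6, 85.1 and 88.3 FPKM with SAS and 51.6, 44.4 and 47.4 FPKM in CTL (difference 0.84, limma adjusted p = 0.00019). Ptpn2, a phosphatase that acts on JAK and STAT proteins, averaged 7.25 ± 1.86 FPKM with SAS and 27.6 ± 4.51 FPKM in CTL (difference -1.80, limma adjusted p = 0.00012). Socs2, a feedback inhibitor of cytokine signals, fell by 0.95 on that scale. The count of falls was 7 without SAS replicate 1 and 6 without SAS replicate 2, and the count of rises was 9 without CTL replicate 3. Over all tested genes 37.2% rose and 29.3% fell.

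Genes known as STAT3 or gp130 targets were mostly lower, with 17 of 20 tested falling and 1 rising (median difference -1.01), against 29.3% falling and 37.2% rising over all tested genes. Timp1, an inhibitor of matrix proteases and a classic gp130 target, averaged 51.6 ± 1.45 FPKM with SAS and 276 ± 33.6 FPKM in CTL (difference of log2(FPKM + 1) -2.39, limma adjusted p = 4.42e-06). Myc, a growth-promoting transcription factor, averaged 128 ± 6.03 FPKM with SAS and 658 ± 31.6 FPKM in CTL (difference -2.35). Pim3, a survival kinase, fell by 2.27, and the nuclear IkB family genes Bcl3 and Nfkbiz fell by 2.42 and 2.64 on that scale. Socs3, the feedback inhibitor of gp130 that STAT3 induces, was named after its values were seen, with 34.3, 30.2 and 32.8 FPKM with SAS and 62.8, 46.4 and 74.3 FPKM in CTL (difference -0.87, adjusted p = 0.0023). Many of these targets also respond to NF-kB or AP-1. The list was chosen with earlier results of these data known, so its share of falls supports nothing by itself.

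Transcription factors that act on cytokine promoters were listed together with IkB genes, among them inhibitors of NF-kB. The genes of this list were also mostly lower, with 23 of 29 tested falling and 1 rising (median difference -1.31). The same shares over all tested genes were 29.3% and 37.2%. The falls include the inhibitor genes Nfkbia, Nfkbib and Nfkbie, named after their values were seen (differences of log2(FPKM + 1) -2.64, -2.31 and -2.39). The AP-1 subunit gene Fosl1 had 106, 122 and 174 FPKM with SAS and 3547, 3486 and 3190 FPKM in CTL, a difference of log2(FPKM + 1) of -4.69 (SE 0.18, limma adjusted p = 2.43e-06). Of its exonic bases, 57.2% lie in Ccdc85b on the opposite strand, so its reads are uncertain. Relb, an NF-kB subunit, averaged 13.2 ± 2.29 FPKM with SAS and 105 ± 9.71 FPKM in CTL (difference -2.91). The stress-inducible factors Ddit3 and Atf3 fell by 3.70 and 3.06 on that scale, and 10.9% of the exonic bases of Ddit3 lie in other gene entries. Nfatc3, named after its value was seen, was the 1 rise, and it was not called without SAS replicate 1, 2 or 3, without CTL replicate 2 or without replicate 3 of both groups. It was likewise not called without the filter, under median-of-ratios scaling or quantile normalization, or with the replicate number as a block. Of the listed factors, Bcl3, Nfkbiz, Cebpb, Cebpd, Junb and Fos also stand in the STAT3 target list, so the counts of both lists are not separate. The factors too were chosen with earlier results of these data known.

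Regulators of AU-rich cytokine mRNA changed both ways, 4 of 23 tested genes rising and 11 falling (median difference -0.59), where 37.2% of all tested genes rose and 29.3% fell. Zfp36l2, a protein that binds ATTTA elements and promotes decay, averaged 46.9 ± 10.8 FPKM with SAS and 164 ± 15.1 FPKM in CTL (difference of log2(FPKM + 1) -1.81, limma adjusted p = 4.45e-05). Zc3h12a, encoding the endonuclease Regnase-1 that cuts Il6 mRNA, averaged 14.0 ± 2.37 FPKM with SAS and 36.1 ± 7.12 FPKM in CTL (difference -1.30). Arid5a, a protein that stabilises Il6 mRNA, fell by 1.73, and Mapkapk3 and Tial1, a kinase and an RNA-binding translational repressor, fell by 1.55 and 1.47 on that scale. Decay-promoting and stabilising regulators were thus both among the falls.

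Of 11 tested genes of cytokine maturation and shedding, 3 rose and 4 fell (median difference 0.04), shares near those of all tested genes, of which 37.2% rose and 29.3% fell. Rhbdf2, which guides the TNF-shedding protease ADAM17 to the cell surface, averaged 32.8 ± 3.16 FPKM with SAS and 112 ± 4.38 FPKM in CTL (difference of log2(FPKM + 1) -1.74, limma adjusted p = 9.90e-06). Gsdmd, a pore-forming protein of IL-1 release, and Furin, a proprotein convertase, fell by 1.12 and 0.90 on that scale. Capn1, a subunit of the calpains that cut pro-IL-1 alpha, rose by 1.19, with 11.8% of its exonic bases in an antisense transcript, and S100a13, a carrier in IL-1 alpha export, rose by 1.49.

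**Figure D5:**
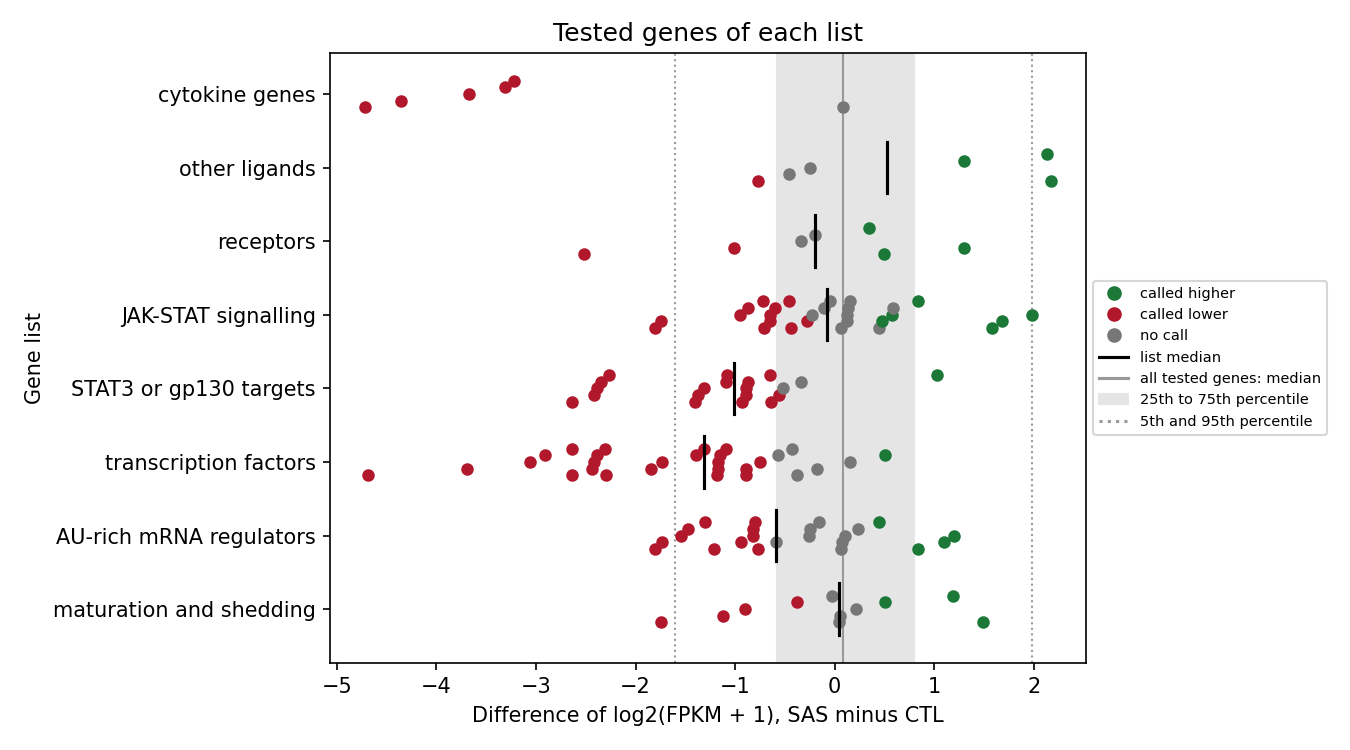
Difference of log2(FPKM + 1), SAS minus CTL, of every tested gene in 8 lists, with calls by colour, list medians as black lines and the distribution of all tested genes in grey. The transcription factor list, which includes IkB inhibitor genes, and STAT3 or gp130 targets lie mostly left of the overall median of 0.08. Their medians are -1.31 and -1.01, while receptors, JAK-STAT genes and maturation genes lie on both sides.

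The genes with the most similar profiles over the 6 libraries were found as the smallest Euclidean distances between log2(FPKM + 1) values centred on their own mean. Nearest to Csf1 were Gadd45b at 0.382, Fosl1 at 0.602 and Ppp1r15a at 0.664 on that scale, and Gadd45b, Itgb7 and Csf1 were nearest to Csf2 at 1.10, 1.24 and 1.26. Gem, Plk2 and Plau were nearest to Lif, at 0.329, 0.351 and 0.425. Il1rn was nearest to Nrg1, Krt80 and Kcnu1 at 0.357, 0.501 and 0.552. The nearest to Il11 was Angptl8 at 0.895, closer than Gadd45b to Csf2 but farther than the nearest profile of every other tested member. Cd74 and Chrnd followed at 1.39 and 1.58. Il33 was nearest to Ccdc191, Nr2f2 and N4bp2, at 0.176, 0.219 and 0.221, none of which was called. Gadd45b, shared by Csf1 and Csf2, had 14.8, 13.4 and 16.1 FPKM with SAS and 435, 301 and 330 FPKM in CTL. These distances rank genes over 6 libraries of 2 groups and carry no test.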

How the data were processed

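RNA-seq of 3 sulfasalazine and 3 untreated libraries was analysed, grouped and numbered by their titles. A plant RNA kit and a bacterial rRNA depletion kit were used, per the labels' protocols. The tools named, in no order, are edgeR, HTSeq 0.13.5, fastp 0.23.0 and HISAT2 2.2.1, with build mm39, per the submitters' processing notes. The authors deposited FPKM per library, the gene length behind which is not stated, with a library-size-adjusted signal per library. The authors' log2 fold changes stand in the same table, as do the authors' p-values, raw and adjusted. A second table was not used, and 0 per-sample columns were left out. Of 13994 gene identifiers found in GENCODE M21, 13861 had its start and end, so coordinates are given as GRCm38 although the notes name mm39.

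FPKM values were whole multiples of a step per gene and library, which gave whole reads within 0.001 reads for 100.0% of the 14003 genes; for 1866 genes more than 1 set was possible and the one nearest the deposited signal was taken, and every member had 1 set. The 10338 genes that reached 1 FPKM in 3 or more of the 6 libraries were tested as log2(FPKM + 1) in limma 3.58.1 (R 4.3.3; two-sided, eBayes with a trend), Benjamini-Hochberg adjusted, threshold 0.05. Fold changes of low genes are understated on that scale. The 95% intervals of differences are those of limma, and those of read ratios are exact binomial (scipy 1.17.1). The fits were tested on simulated data. Alternatives were median-of-ratios and quantile scaling, a pseudocount of 0.1 FPKM, a filter of 5 FPKM or none, no trend, a replicate block, each library left out, replicate 3 of both groups left out, and voom on recovered reads (at least 10 reads in 3 libraries).

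Members and lists were chosen with earlier results of these data known. Named were every member, every receptor with values, up to 5 called genes per list with the largest change, no overlap and a higher group mean of at least 5 FPKM, and 3 nearest profiles per tested member, leaving out predicted genes. Exonic overlap and shared 50-base words were taken from GENCODE M21, and promoter sequences from RefSeq (GRCm38.p6). A listed ligand is counted but not reported here by name.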

Additional observations from a re-analysis of the deposited data

How the results depend on the processing

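The 5 falls among tested members (Csf1, Csf2, Lif, Il11, Il1rn) were called in all 15 alternatives, and none was called higher; without the filter and with voom, 7 members were called lower. Over all genes the calls ranged from 3254 to 4274 higher and from 2454 to 3803 lower, the lowest counts of falls coming without SAS replicate 2 or 1. Median-of-ratios scaling moved the median difference of all genes by -0.117 and quantile normalization by -0.106 on the log2 scale, and calls were then 3437 higher and 3530 lower, or 3507 and 3549, so the split of calls moved toward falls. Differences that changed sign were all of genes that were not called. Il33 gave -0.0166 under median-of-ratios scaling, -0.233 under quantile normalization, -0.0408 without replicate 3 of both groups, and -0.0162 to 0.223 with 1 library left out, the lowest without SAS replicate 1. Ccdc191 gave -0.0273, -0.215 and -0.0338 under the same settings, N4bp2 -0.154 under quantile normalization, and Nr2f2 -0.0927 to 0.0851 with 1 library left out (0.0851 without SAS replicate 2, 0.0801 without CTL replicate 2). The cause was not tested. Replicate numbers did not pair the samples (same-number correlations of deviations 0.0363, -0.194 and -0.174), and with the replicate block 3649 genes were higher and 2771 lower, with the same 5 members lower. Of the other genes named and followed across settings, Runx2, Tnfrsf1a, Tnfrsf1b and Nfatc3 lost their calls in some. The calls of Krt8, Krt18, Krt19, Cd14, Cd68, Socs3, Il18, Stat3, Nfkbia, Nfkbib and Nfkbie were not followed singly, so their stability is not known. Depth limits Csf3, Il6, Tnf and Il1a, each with at most 80 reads in a library.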

Other observations

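Several inflammatory genes of the lists lay under the expression filter and were named after their values were seen. Saa3, an acute-phase gene, had 0.125, 0.362 and 0.656 FPKM with SAS and 8.40, 0.563 and 48.7 FPKM in CTL, so the groups overlapped and CTL replicate 3 was by far the highest, as for Il11. Icam1, an adhesion receptor for leukocytes, had 0.134, 0.124 and 0.150 FPKM with SAS and 5.90, 0.911 and 10.2 FPKM in CTL, with CTL replicate 2 the lowest control, as for Csf2 and Csf3. Nlrp3, an inflammasome sensor, had 0.0628, 0.0511 and 0.0176 FPKM with SAS and 1.89, 0.196 and 1.32 FPKM in CTL, again lowest in CTL replicate 2. Casp4, encoding the inflammatory caspase 11, had 0.0433, 0 and 0.0486 FPKM with SAS and 2.73, 2.43 and 0.527 FPKM in CTL. None of these was tested in the fit with the filter. They do not stand for all listed genes under it, as some were not lower with SAS. Ptpn6 averaged 1.33 ± 0.489 FPKM with SAS and 0.413 ± 0.215 FPKM in CTL (SD, n = 3 each). Hp averaged 0.375 ± 0.414 FPKM with SAS and 0.363 ± 0.456 FPKM in CTL.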
